A study of Rattus norvegicus with 12 samples.

Results

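Phagocytes kill what they engulf with oxidants, with enzymes that digest cell walls and with proteins that punch holes in membranes. 4 such effector genes were examined in inflamed and sham-operated sensory ganglia of the rat: Cybb and Ncf1, which encode the membrane-bound catalytic subunit and the cytosolic organizer of the phagocyte NADPH oxidase, Lyz2, a lysozyme, and Mpeg1, a pore-forming protein of macrophages. They were chosen by name, with earlier results of these arrays known, among genes with a probeset assigned to no other gene symbol. Each had 1 such probeset among the 8260 of the series, of which 7603 carried a single symbol. Each sample was 1 dorsal root ganglion (DRG) at level L5 from 1 adult male Sprague Dawley rat, hybridized to 1 array (Affymetrix Rat Exon ST) and taken on post-operative day 3. In the 6 rats with local inflammation of the DRG (LID), the ganglion had been exposed to zymosan through a 10 µl dose of a 2 mg/ml preparation. Incomplete Freund's Adjuvant served as the vehicle, and the dose was delivered to the surface of the ganglion at the foramen. The 6 sham rats underwent this surgery up to the opening of the foramen and received neither zymosan nor adjuvant, so the effects of zymosan, of the adjuvant and of the injected volume cannot be told apart. A whole ganglion holds sensory neurons, satellite glia, Schwann cells, vessels and resident and infiltrating leukocytes.

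The phagocyte oxidase passes electrons from NADPH across the phagosome membrane to oxygen and so makes superoxide. At rest its membrane part, to which the Cybb protein belongs, is kept apart from the cytosolic part. On activation the Ncf1 protein is phosphorylated and carries the cytosolic subunits to the membrane, where a small GTPase, Rac2 in many leukocytes, completes the complex. Lysozyme cleaves the peptidoglycan of bacterial cell walls. The protein of Mpeg1, perforin-2, belongs to the same protein superfamily as perforin and the terminal complement components. Zymosan, a preparation of yeast cell walls, is a classical trigger of the oxidative burst in macrophages and neutrophils.

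The sequences upstream of the 4 genes are shown because the genes rose in the same arrays, as described below, although they lie on different chromosomes. In the RefSeq annotation of build GRCr8, Cybb is on chromosome X, Ncf1 on chromosome 12, Lyz2 on chromosome 7 and Mpeg1 on chromosome 1. The promoter windows of that annotation reach 250 bases before a start of transcription, and bases that fall inside the annotated gene were left out (69 for Ncf1, 49 for Lyz2, 46 for Mpeg1 and 0 for Cybb). The remaining stretches are given 5′ to 3′ on the strand of the gene, for Cybb chrX:16065066-16065315 (minus strand), for Ncf1 chr12:28121635-28121815 (plus strand), for Lyz2 chr7:54798061-54798261 (minus strand) and for Mpeg1 chr1:218876644-218876847 (plus strand). Capitals mark matches to the motifs named after the sequences.
Cybb: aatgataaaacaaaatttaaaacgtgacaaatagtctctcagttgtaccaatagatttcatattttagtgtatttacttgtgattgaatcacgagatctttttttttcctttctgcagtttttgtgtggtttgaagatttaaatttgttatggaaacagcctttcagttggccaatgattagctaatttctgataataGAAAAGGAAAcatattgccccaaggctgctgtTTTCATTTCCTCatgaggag
Ncf1: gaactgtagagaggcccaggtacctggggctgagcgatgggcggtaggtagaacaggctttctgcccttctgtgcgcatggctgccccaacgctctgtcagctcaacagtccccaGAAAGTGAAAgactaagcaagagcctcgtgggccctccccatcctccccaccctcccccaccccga
Lyz2: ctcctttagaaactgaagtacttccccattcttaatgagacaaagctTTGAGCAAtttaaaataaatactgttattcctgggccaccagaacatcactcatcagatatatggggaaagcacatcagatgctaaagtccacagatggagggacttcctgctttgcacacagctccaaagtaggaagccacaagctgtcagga
Mpeg1: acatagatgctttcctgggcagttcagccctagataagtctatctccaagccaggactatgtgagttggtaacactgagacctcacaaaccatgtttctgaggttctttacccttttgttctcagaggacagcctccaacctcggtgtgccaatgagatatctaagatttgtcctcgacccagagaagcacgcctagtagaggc
The motifs were searched on both strands of windows from 250 bases before to 50 bases after the start, in the 33469 promoters of the RefSeq table. The ETS core GAGGAA, the kind of site that the myeloid factor PU.1 (Spi1) binds, was found in Cybb and Lyz2 and in 27.6% of all promoters, and the Lyz2 match lay in the part left out above. The ETS-IRF composite, to which ETS and IRF factors bind together, was found in Cybb but in none of the other 3 genes, and in 2.94% of all promoters. This match lay 20 to 11 bases before the start on the reverse strand and overlapped that of the ETS core. The interferon-stimulated motif, bound by IRF factors, was found in Cybb and Ncf1 and in 3.92% of all promoters, and the C/EBP motif TTNNGCAA in Lyz2 and in 10.6%. The motif TTCNNNGAA (GAS, bound by STAT factors) was found in 8.87% of all promoters and had no match in the 4 windows, too few to read as a lack. The Mpeg1 window held none of the 5 motifs. These matches describe letters only, and binding was not measured.

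Lyz2 has a near copy, Lyc2, on the same chromosome, for which no value was analysed here. Over the last 60 bases before the start, 48 were identical between the promoter windows of the pair and 12 differed, and the 39 bases directly before the start and the 50 bases after it were all identical. The 49 bases directly before this start fall inside the annotated Lyz2 gene. The 39 identical bases therefore lie within that gene and not upstream of it. Whether the probes of the Lyz2 probeset also read Lyc2 was not tested, so the Lyz2 values are those of a probeset that may not separate the pair.

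The deposited values were log2 values from which the median of the 12 arrays had been subtracted for each probeset. A value of 1 is therefore double that median, and no level of expression remains, so the 4 genes could not be ranked by abundance. By this construction the 2 middle values of a gene are equal in size and opposite in sign. The array medians over all probesets ran from -0.04 to 0.09, with sham replicate 2 the highest and also the array with the widest spread (SD 0.27, against 0.14 to 0.26 in the other 11).

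All 4 genes were higher in LID than in sham ganglia, by 2.05-fold to 3.38-fold. At an adjusted p under 0.05 (limma, Benjamini-Hochberg over 8260 probesets), 7.66% of all probesets were called higher and 11.7% lower, and with a fold change over 1.5 as well, which all 4 genes also exceeded, 2.14% were called higher. The median log2 difference over all probesets was -0.02. In 3 of the 4 genes the groups did not overlap, with all LID arrays above all sham arrays, which held for 3.62% of all probesets, and for 6.42% in the opposite direction. Since the 4 genes were chosen with earlier results of these arrays known, their calls beside these shares are not independent evidence. In whole ganglia, more phagocytes and more RNA of these genes per phagocyte cannot be told apart. Leaving out any 1 array gave log2 differences of 1.64 to 1.88 for Cybb, 0.86 to 1.16 for Ncf1, 1.39 to 1.57 for Lyz2 and 1.35 to 1.63 for Mpeg1, each past the test in limma.

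Cybb had the largest difference of the 4. Its log2 values in sham replicates 1 to 6 were -0.26, -1.46, -0.93, -1.28, -0.68 and -0.59, and in LID replicates 1 to 6 they were 0.46, 1.5, 1.37, 1.02, 0.26 and 0.74. LID replicates 2, 3 and 4 were high, LID replicates 1 and 5 were the closest to sham, and sham replicates 2 and 4 were the lowest. The mean was -0.87 ± 0.45 in sham and 0.89 ± 0.50 in LID (SD, n = 6 arrays each), a log2 difference of 1.76 (standard error 0.24, adjusted p = 0.000358 in limma). Among all 8260 probesets this was the 19th largest increase.

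Ncf1 rose 2.05-fold (95% confidence interval 1.49 to 2.81), the smallest change of the 4. Its log2 values in sham replicates 1 to 6 were -0.08, -0.06, -0.41, -0.47, -0.56 and -0.43, and in LID replicates 1 to 6 they were 0.34, 1.58, 0.99, 0.83, 0.06 and 0.42. The sham arrays lay close together, with an SD of 0.21, and the LID arrays had an SD of 0.55, with LID replicate 2 far above the rest. The lowest LID array, replicate 5, lay only 0.11 above the highest sham array, which was replicate 2, the array with the lowest Cybb value. The log2 difference was 1.03 (standard error 0.211, adjusted p = 0.00425 in limma).

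Lyz2 separated the groups most clearly. In sham replicates 1 to 6 its log2 values were -0.44, -1.29, -0.78, -1.36, -0.58 and -0.47, and in LID replicates 1 to 6 they were 0.60, 0.93, 0.78, 0.67, 0.44 and 0.63. Here the spread was the reverse of that of Ncf1, with an SD of 0.41 in sham and 0.16 in LID, and the lowest LID array lay 0.89 above the highest sham array. The log2 difference was 1.5 (standard error 0.16, adjusted p = 5.96e-05 in limma), and by its p value Lyz2 ranked 50th among 8260 probesets, against 130th for Cybb, 224th for Mpeg1 and 558th for Ncf1.

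Mpeg1 was the 1 gene of the 4 whose groups overlapped. Its log2 values in sham replicates 1 to 6 were 0.08, -1.02, -1.11, -1.21, -0.98 and -0.95, and in LID replicates 1 to 6 they were 0.63, 1.07, 0.93, 0.53, 0.40 and -0.08. Sham replicate 1 stood apart from the other 5 sham arrays, which lay within -1.21 to -0.95, and exceeded LID replicate 6, the lowest of its group. The log2 difference was 1.44 (standard error 0.226, adjusted p = 0.000834 in limma). Without sham replicate 1 it was 1.63 (adjusted p = 7.01e-05).

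**Figure D1:**
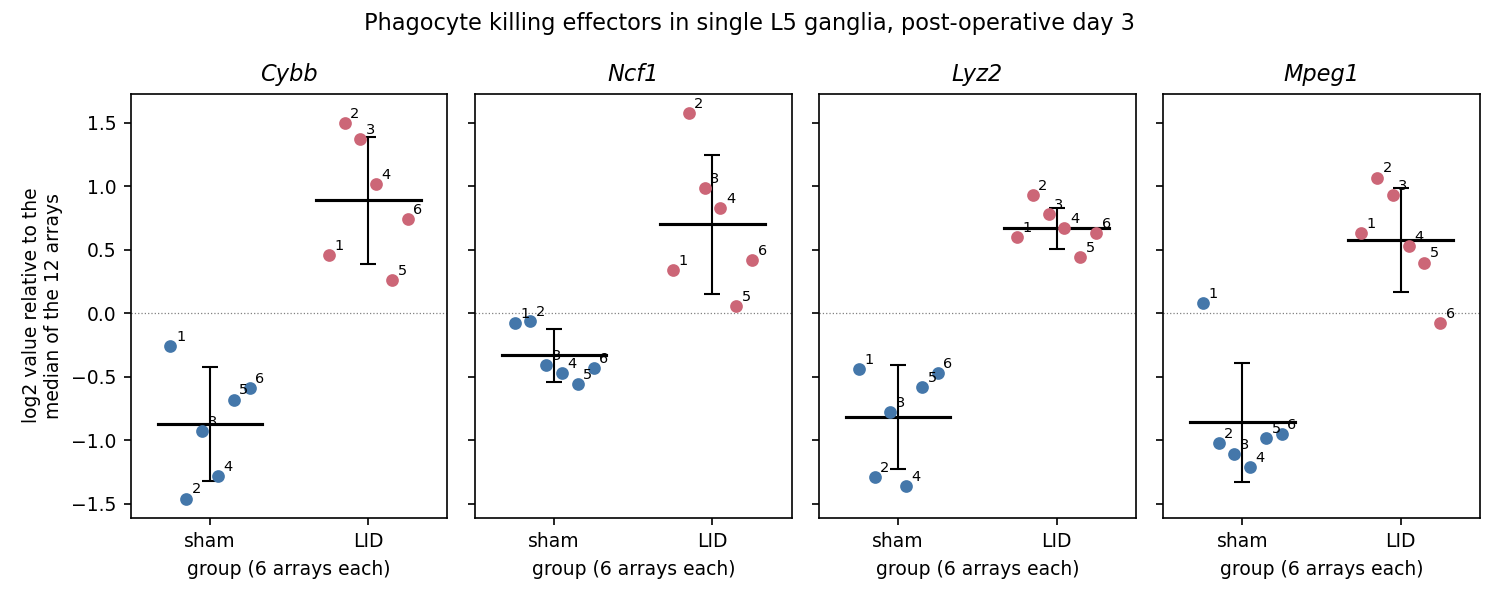
Log2 values of Cybb, Ncf1, Lyz2 and Mpeg1 relative to the median of the 12 arrays (vertical axis), in 6 sham and 6 LID arrays (horizontal axis). Points are arrays with their replicate numbers, and lines and bars are means and SDs. In Cybb, Ncf1 and Lyz2 all LID points lie above all sham points, whereas in Mpeg1 sham replicate 1 (0.08) lies above LID replicate 6 (-0.08).

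On the deposited values, all 4 genes varied more between arrays of the same group than most genes. The SD within groups was 0.472 for Cybb, 0.443 for Mpeg1, 0.415 for Ncf1 and 0.311 for Lyz2, on the log2 scale, against a median of 0.125 over all probesets. The LID arrays kept nearly the same order in every gene. Replicate 2 was the highest and replicate 3 the second in all 4 genes, and in Cybb, Ncf1 and Lyz2 the order was the same for all 6 LID arrays, from replicate 2 down through 3, 4, 6 and 1 to 5. In Mpeg1, LID replicate 1 moved up to rank 3 of the LID arrays and LID replicate 6 fell to the last. The spread of whole arrays had a similar order. The SD over all probesets was 0.26 in LID replicate 2, 0.20 in replicates 3 and 4, 0.17 in 1, 0.16 in 6 and 0.14 in 5. A gene that rises strongly can follow this spread, and its part in the shared order was not tested. In sham the SD over all probesets was 0.27 in replicate 2, 0.21 in 4 and 6, 0.19 in 3, 0.18 in 5 and 0.15 in 1. Cybb and Lyz2 were lowest in sham replicates 2 and 4 and highest in sham replicate 1. The part of the spread in this was not tested either. With renewed quantile normalization, standard errors in limma fell from 0.24 to 0.145 for Cybb and from 0.211 to 0.131 for Ncf1. They fell from 0.16 to 0.09 for Lyz2 and from 0.226 to 0.171 for Mpeg1. The log2 differences fell as well, to 1.49, 0.90, 1.32 and 1.17 in that order of genes. Whether the 4 genes then still varied more than most was not tested.

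The strength of these relations was computed for the 6 pairs of genes within each group, 12 relations in all, with exact two-sided permutation tests and Benjamini-Hochberg adjustment over the 12. Within LID, Ncf1 and Lyz2 gave Pearson's r = 0.98 (p = 0.00139, adjusted p = 0.00833, exact, n = 6 arrays) and Spearman's rho = 1.00 (p = 0.00278, adjusted p = 0.0111). Cybb and Lyz2 gave r = 0.95 (p = 0.00139, adjusted p = 0.00833, exact) and Cybb and Ncf1 r = 0.95 (p = 0.00278, adjusted p = 0.0111, exact), with rho = 1.00 in both (exact p = 0.00278, adjusted p = 0.0111). Without LID replicates 2 and 5, the arrays farthest from the median, these 3 values of r were 0.92, 0.97 and 0.96. Cybb and Lyz2 also moved together within sham, with r = 0.95 (exact p = 0.00556, adjusted p = 0.0167), rho = 0.94 (exact p = 0.0167, adjusted p = 0.04) and r = 0.99 without sham replicates 1 and 2. Ncf1 did not share this pattern in sham. There its r was -0.04 with Cybb (exact p = 0.942, adjusted p = 0.942; rho = -0.14, exact p = 0.803, adjusted p = 0.876) and -0.11 with Lyz2 (exact p = 0.865, adjusted p = 0.942; rho = 0.09, exact p = 0.919, adjusted p = 0.919), and leaving out sham replicates 1 and 2 gave -0.11 and -0.04. Whether the relation of Ncf1 with the other genes differed between sham and LID was not tested. All relations were computed on the deposited values and were not repeated on arrays scaled to equal spread. In the other 6 relations, all with Mpeg1, the adjusted p of r was 0.113 or higher, and 1 of them, Lyz2 and Mpeg1 in sham, passed by rho alone (rho = 0.94, exact p = 0.0167, adjusted p = 0.04; r = 0.57, exact p = 0.232, adjusted p = 0.278).

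**Figure D2:**
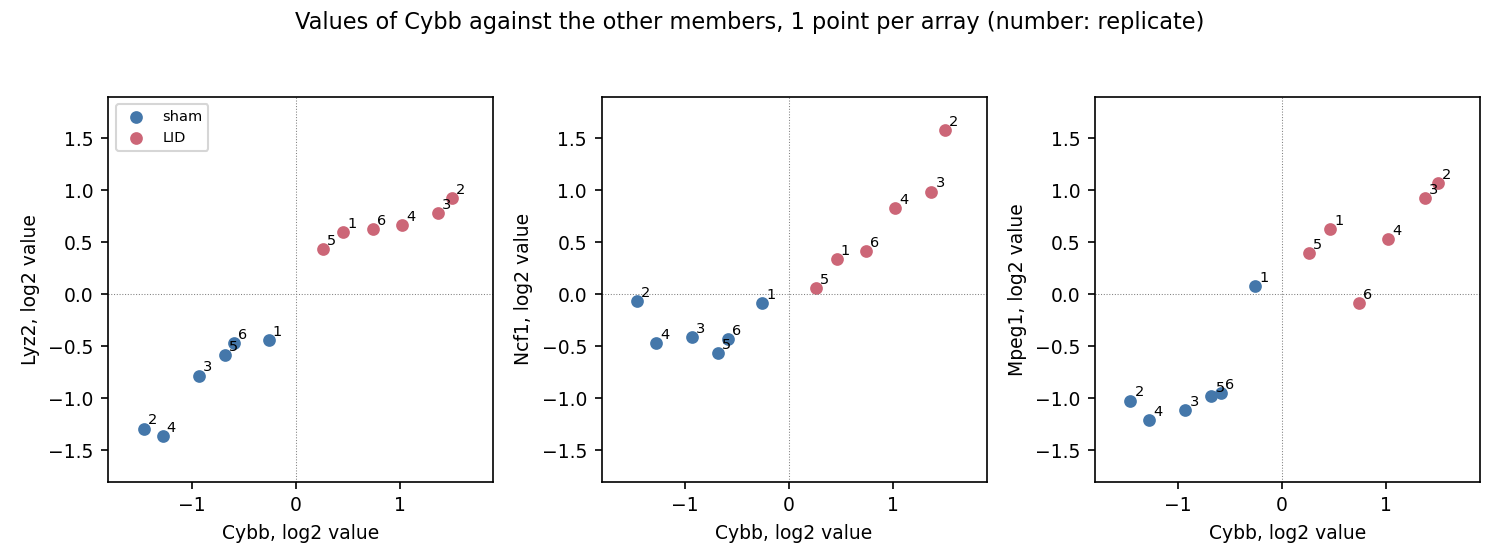
Log2 values of Lyz2, Ncf1 and Mpeg1 (vertical axes) against those of Cybb (horizontal axes), relative to the median of the 12 arrays, with 1 numbered point per array in blue for sham and red for LID. Lyz2 follows Cybb within both groups (r = 0.95 in each), Ncf1 follows it within LID (r = 0.95) but not within sham (r = -0.04), and sham replicate 1 and LID replicate 6 leave the trend of Mpeg1.

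The sizes of the changes were compared between genes by taking 1 gene minus another on each array. Cybb minus Ncf1 was -0.53 ± 0.50 in sham and 0.19 ± 0.16 in LID (log2, SD, n = 6 arrays each), so that Cybb rose by 0.72 more than Ncf1, and this difference was above every sham array in 6 of 6 LID arrays (exact two-sided permutation test, p = 0.00216, the smallest that 924 assignments can give, adjusted p = 0.013 over the 6 pairs). Part of this came from sham replicate 2, where Cybb minus Ncf1 was -1.40, and without that array the difference was 0.55 (adjusted p = 0.026). The call was lost when any 1 LID array was left out, with adjusted p of 0.0519 or 0.0649. In the other 5 pairs the change did not differ past the test. Lyz2 and Mpeg1 differed by 0.05 (exact p = 0.82, adjusted p = 0.82), Cybb and Lyz2 by 0.26 (exact p = 0.136, adjusted p = 0.2), Cybb and Mpeg1 by 0.31 (exact p = 0.167, adjusted p = 0.2), and Ncf1 by -0.46 and -0.41 from Lyz2 and Mpeg1 (exact p = 0.0996 and 0.0909, adjusted p = 0.199 for both). Probesets can compress changes to different degrees, and their part in these differences was not tested.

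Markers of macrophages and monocytes were higher in the same arrays. Of 15 such markers 8 were measured, of which 7 rose and 1, Cx3cr1, did not pass the test (log2 difference 0.04, adjusted p = 0.916 in limma), with a median log2 difference of 0.97. The list was chosen with earlier results of these arrays known, and its count is not independent evidence. The mean of the 8 markers ran from -0.71 to -0.14 in sham and from 0.10 to 0.75 in LID, was highest in LID replicates 2 and 3, and was lowest in sham replicates 2 and 4. The 8 markers differed in their own changes, from 0.04 for Cx3cr1 and 0.55 for Aif1 to 1.29 for Itgam and 1.31 for Ptprc (log2, named after their values were seen), so that differences from their mean depend on the markers chosen. They are no measure per cell, and unequal compression by the probesets was not tested. The effector genes were also chosen with earlier results known, so the p values of these differences are not independent evidence. The list also holds Ptprc, the leukocyte phosphatase CD45, so its mean is not particular to macrophages and monocytes. Cybb minus this mean was higher in LID by 0.88 (from -0.42 ± 0.25 to 0.46 ± 0.30, SD, n = 6 arrays each, exact two-sided permutation test, p = 0.00216, adjusted p = 0.00433 over the 4 genes) and Lyz2 by 0.62 (from -0.37 ± 0.24 to 0.25 ± 0.15, exact p = 0.00216, adjusted p = 0.00433), in 6 of 6 LID arrays above every sham array. With the median of the markers in place of their mean these differences were 0.76 and 0.50. Mpeg1 was higher by 0.57 relative to the markers (exact p = 0.0108, adjusted p = 0.0144), in 3 of 6 LID arrays above every sham array. Ncf1 was 0.12 ± 0.32 in sham and 0.27 ± 0.34 in LID relative to the markers, a difference of 0.16 that did not pass (exact p = 0.439, adjusted p = 0.439).

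**Figure D3:**
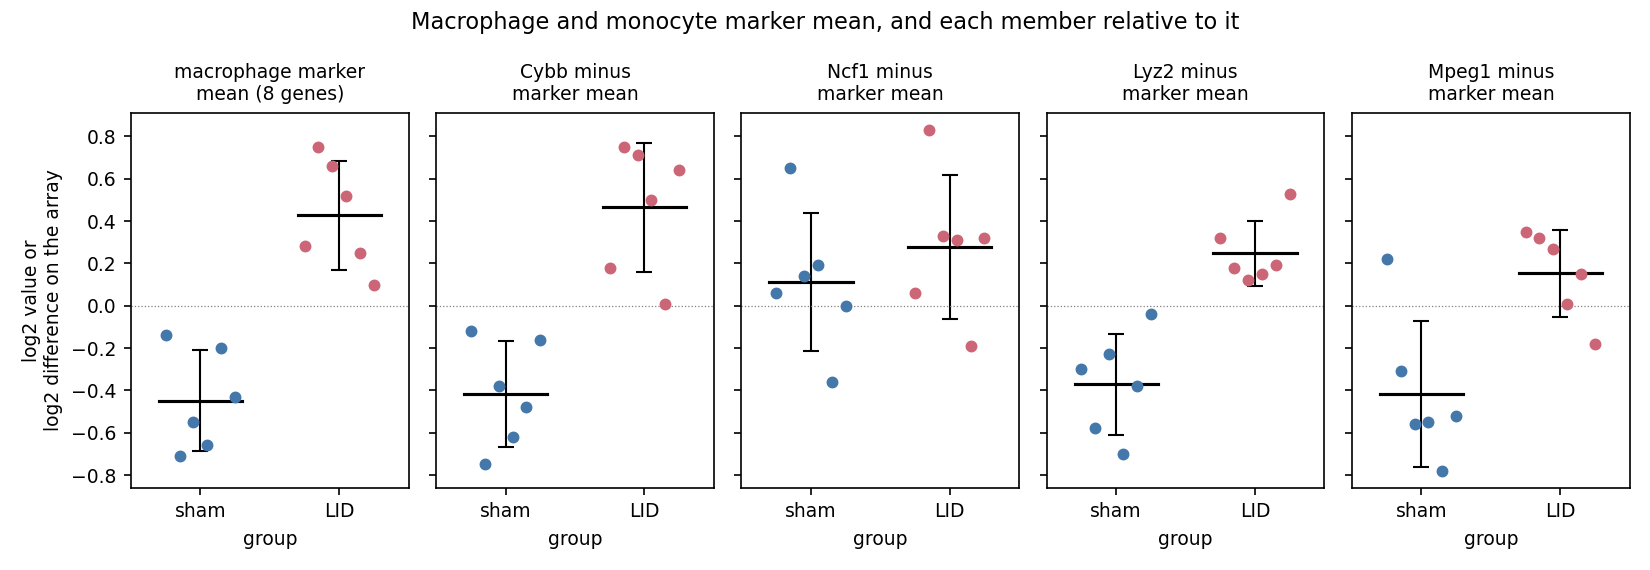
The mean log2 value of 8 macrophage and monocyte markers on each array (left panel) and each effector gene minus that mean (the other panels), in 6 sham and 6 LID arrays, with lines and bars for means and SDs. Cybb and Lyz2 lie higher relative to the markers in every LID array than in any sham array, and Ncf1 does not (0.12 in sham, 0.27 in LID).

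Markers of other cell types were also examined. Of 14 neutrophil markers 6 were measured and 3 passed, all higher and named here after their values were seen: Fcnb, a ficolin, by 2.78 (log2), the gelatinase Mmp9 by 1.52 and the chemokine receptor Cxcr2 by 0.39. The call of Cxcr2 was lost without sham replicate 4 or 5 or LID replicate 2, 3 or 5 (adjusted p 0.0532 to 0.0646). Fcnb and Mmp9 can also be expressed by monocytes or macrophages. The calprotectin genes S100a8 and S100a9, abundant in neutrophils and also named after their values were seen, differed by -0.00 and 0.07 (log2, adjusted p = 0.994 and 0.757 in limma). Mmp8, also named after its value was seen, differed by -0.03 (log2, adjusted p = 0.87 in limma). The mean of the 6, in which Fcnb and Mmp9 had by far the largest differences, ran from -0.52 to -0.14 in sham and from 0.18 to 0.91 in LID. Of 8 measured T and NK cell genes 2 rose, named after their values were seen, Nkg7 by 1.16 and Klrk1 by 1.72 (log2). The other 6 did not pass in limma, with log2 differences from -0.07 (Ncr1) to 0.39 (Cd4), also named after their values were seen. The list mean, in which Nkg7 and Klrk1 had by far the largest differences, ran from -0.38 to 0.00 in sham and from -0.01 to 0.46 in LID. The 1 measured B cell gene, Cd79b, ran from -0.49 to 0.24 in sham and from -0.02 to 0.25 in LID. None of 12 sensory neuron genes passed in limma (2 at an unadjusted p under 0.05), nor any of 6 Schwann cell probesets (0 at an unadjusted p under 0.05). Of 6 satellite glial genes 2 fell, beside 11.7% called lower over all probesets. They were the potassium channel Kcnj10 and the glutamate transporter Slc1a3 (log2 differences -0.42 and -0.48). The other 4 did not pass, with log2 differences from -0.26 (Fabp7) to 0.06 (Gja1). These satellite glial genes were also named after their values were seen. The part of these cells in the effector genes was not tested. Since no level remains, markers that were absent from the tissue could not be identified by a value of 0.

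The genes whose values over the 12 arrays were most like those of each effector gene included several of leukocytes. These correlations share the arrays and the group difference and are descriptions. Among 7602 other probesets with 1 symbol, those closest to Cybb were Lilrb4, an inhibitory receptor of myeloid cells, the lysosomal protease Ctss (r = 0.99 each) and Ptprc, the leukocyte phosphatase CD45 (r = 0.98), and Lyz2 came 4th (r = 0.97). Closest to Lyz2 were Ctss, the invariant chain Cd74 and the integrin Itgb1 (r = 0.98 each), and Cybb came 5th. Ncf1 had other neighbors, namely Bcl2a1, a survival factor of leukocytes (r = 0.99), the myeloid tyrosine kinase Fgr (r = 0.98) and Nos2, the inducible nitric oxide synthase (r = 0.97). In the ranking of Ncf1, Cybb came 82nd (r = 0.89), Mpeg1 115th (r = 0.88) and Lyz2 256th (r = 0.82). Closest to Mpeg1 were RT1-DMb, a chain of the peptide-loading molecule of MHC class II (r = 0.99), the TNF receptor Tnfrsf1b and the matrix proteoglycan Vcan (r = 0.98 each), and Cybb came 84th (r = 0.93).

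With the group means subtracted, only differences between arrays of the same group counted, and the spread of whole arrays remained among them. The closest genes to Ncf1 were again Bcl2a1 (r = 0.97), Fgr (0.95) and Nos2 (0.95). For Cybb they were again Lilrb4 (0.94) and Ctss (0.93), then the TGF-beta receptor Tgfbr1 (0.92). For Lyz2 they were Ctss (0.91), Ms4a6bl1 (0.89) and the complement protease C1s (0.87), with Cybb 8th (0.85). For Mpeg1 they were Zbtb1 (0.97), a transcriptional regulator whose mean did not differ between the groups past the test (log2 difference 0.02, adjusted p = 0.894 in limma), RT1-DMb (0.94) and Tnfrsf1b (0.93).

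Among the partners of the phagocyte oxidase, the leukocyte GTPase Rac2 rose and its broadly expressed relative Rac1 did not pass the test. Of 9 such genes 5 were measured, with 2 higher and 0 lower. Rac2 ran from -0.74 to -0.16 in sham (median -0.46) and from 0.16 to 0.80 in LID (median 0.60), without overlap, a 1.97-fold increase (1.63 to 2.37, adjusted p = 0.000255 in limma). Rac1 ran from -0.14 to 0.05 in sham and from -0.00 to 0.06 in LID (log2 difference 0.09, adjusted p = 0.172). P2rx7, an ATP receptor linked to oxidase activation in macrophages, rose 1.28-fold (1.09 to 1.52, adjusted p = 0.0367 in limma), a call that was lost without any 1 of 8 arrays, namely sham replicates 1, 2, 3 or 4 or LID replicates 2, 3, 4 or 5 (adjusted p 0.0515 to 0.0823). Cybc1, a chaperone needed for the oxidase membrane subunits, differed by -0.07 (log2, adjusted p = 0.373) and Rap1a, a GTPase found with the oxidase, by 0.09 (adjusted p = 0.5). Of 4 measured genes of the other NADPH oxidases, which serve cells other than phagocytes, 0 passed in limma and 0 had an unadjusted p under 0.05 (log2 differences -0.07 to 0.14).

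The inducible synthase of nitric oxide, Nos2, which makes a second oxidant of phagocytes, rose 1.67-fold (1.26 to 2.22, adjusted p = 0.0149 in limma). Its log2 values ran from -0.35 to 0.06 in sham and from -0.06 to 1.25 in LID, with sham replicate 2 the highest of sham and LID replicate 2 the highest of all, as in Ncf1. Among 4 measured genes for synthases of nitric oxide, their cofactor and the competing use of their substrate, Nos2 was the 1 that rose and 0 fell, and the log2 differences of the other 3 were 0.07 to 0.16.

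Among 10 measured genes for antimicrobial proteins of granules and secretions, 2 were higher, 0 were lower and 8 were not called. Chi3l1, a chitin-binding lectin of macrophages and other cells, rose 3.30-fold (2.57 to 4.24, adjusted p = 3.09e-05 in limma), from -1.17 to -0.26 in sham to 0.26 to 1.24 in LID (log2). Slpi, a secreted inhibitor of neutrophil proteases with antimicrobial activity, rose 2.06-fold (1.54 to 2.76, adjusted p = 0.00237). The median log2 difference of the 10 was 0.07. The 1 other gene of the lysozyme family that was measured, the milk protein gene Lalba, differed by 0.05 (log2, adjusted p = 0.843 in limma) and by -0.01 without LID replicate 2.

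Of 10 measured pore-forming proteins and granzymes 4 rose and 0 fell, with log2 differences of 0.23 to 0.52 beside 1.44 for Mpeg1, a gap that was not tested. C6, a component of the terminal complement pore, rose 1.44-fold (1.25 to 1.65, adjusted p = 0.0016 in limma), perforin (Prf1), the pore of cytotoxic lymphocytes, 1.26-fold (1.14 to 1.39, adjusted p = 0.00376) and Ninj1, which ruptures the membrane of dying cells, 1.21-fold (1.09 to 1.34, adjusted p = 0.0132). Gzmk, a granzyme named after its value was seen, rose 1.17-fold (1.05 to 1.31, adjusted p = 0.0373), a call that was lost without any 1 of 7 arrays, sham replicates 3 to 6 or LID replicates 1 to 3 (adjusted p 0.0654 to 0.0855).

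In the phagosome and lysosome most genes did not pass the test. Of 11 measured genes for acidification and proteases 3 rose and 1 fell, with a median log2 difference of 0.06. Cathepsin S (Ctss), a protease of antigen-presenting cells, rose 2.57-fold (1.96 to 3.36, adjusted p = 0.000294 in limma), without overlap (sham at most -0.29, LID at least 0.29). Cathepsin L (Ctsl) fell, with a log2 difference of -0.24 (SE 0.064, adjusted p = 0.018). The proton pump subunit Tcirg1 rose 1.26-fold (1.08 to 1.46, adjusted p = 0.0316), lost without any 1 of sham replicates 3, 4 or 5 or LID replicates 1, 2 or 3 (0.0509 to 0.0738), and the pump accessory Atp6ap1, named after its value was seen, 1.11-fold (adjusted p = 0.0286), lost without sham replicate 1 or 4 or LID replicate 1 or 3 (0.0564 to 0.0709). Of 6 genes of metal transport and restriction, the zinc exporter Slc30a1 rose 1.14-fold (adjusted p = 0.0102) and the iron exporter ferroportin (Slc40a1) fell, with a log2 difference of -0.34 (SE 0.0647, adjusted p = 0.00303).

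Of 13 enzymes that remove superoxide and peroxide, the products of the oxidase, 3 were higher, 1 was lower and 9 were not called. The mitochondrial dismutase Sod2 rose 1.26-fold (1.12 to 1.42, adjusted p = 0.00874 in limma), the peroxiredoxin Prdx6 1.19-fold (1.10 to 1.28, adjusted p = 0.00444) and the thioredoxin reductase Txnrd1, named after its value was seen, 1.16-fold (1.08 to 1.24, adjusted p = 0.00505). The extracellular dismutase Sod3 fell, with a log2 difference of -0.25 (SE 0.0692, adjusted p = 0.0215), not past the test without sham replicate 4 (adjusted p = 0.051).

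Of 8 measured transcription factors known to act on phagocyte genes, 4 were higher, 0 were lower and 4 were not called. Irf8, a factor of macrophage differentiation, rose 2.26-fold (1.74 to 2.93, adjusted p = 0.000605 in limma), Irf1, induced by interferons, 2.17-fold (1.70 to 2.76, adjusted p = 0.000555) and Spi1, which encodes PU.1, 1.64-fold (1.35 to 1.98, adjusted p = 0.00211). The lowest LID value of Spi1 was 0.07 and the highest sham value -0.07, and those of Irf8 were 0.16 and -0.16, so neither overlapped. Cebpa, named after its value was seen, rose 1.19-fold (1.06 to 1.34, adjusted p = 0.0345), lost without any 1 of sham replicates 3 to 6 or LID replicates 1 to 3 (0.0522 to 0.0802). Over the 10 groups of pathway genes, 20 of 72 measured genes were higher, 3 were lower and 49 were not called, beside 7.66% higher and 11.7% lower over all probesets, in groups chosen with earlier results of these arrays known.

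**Figure D4:**
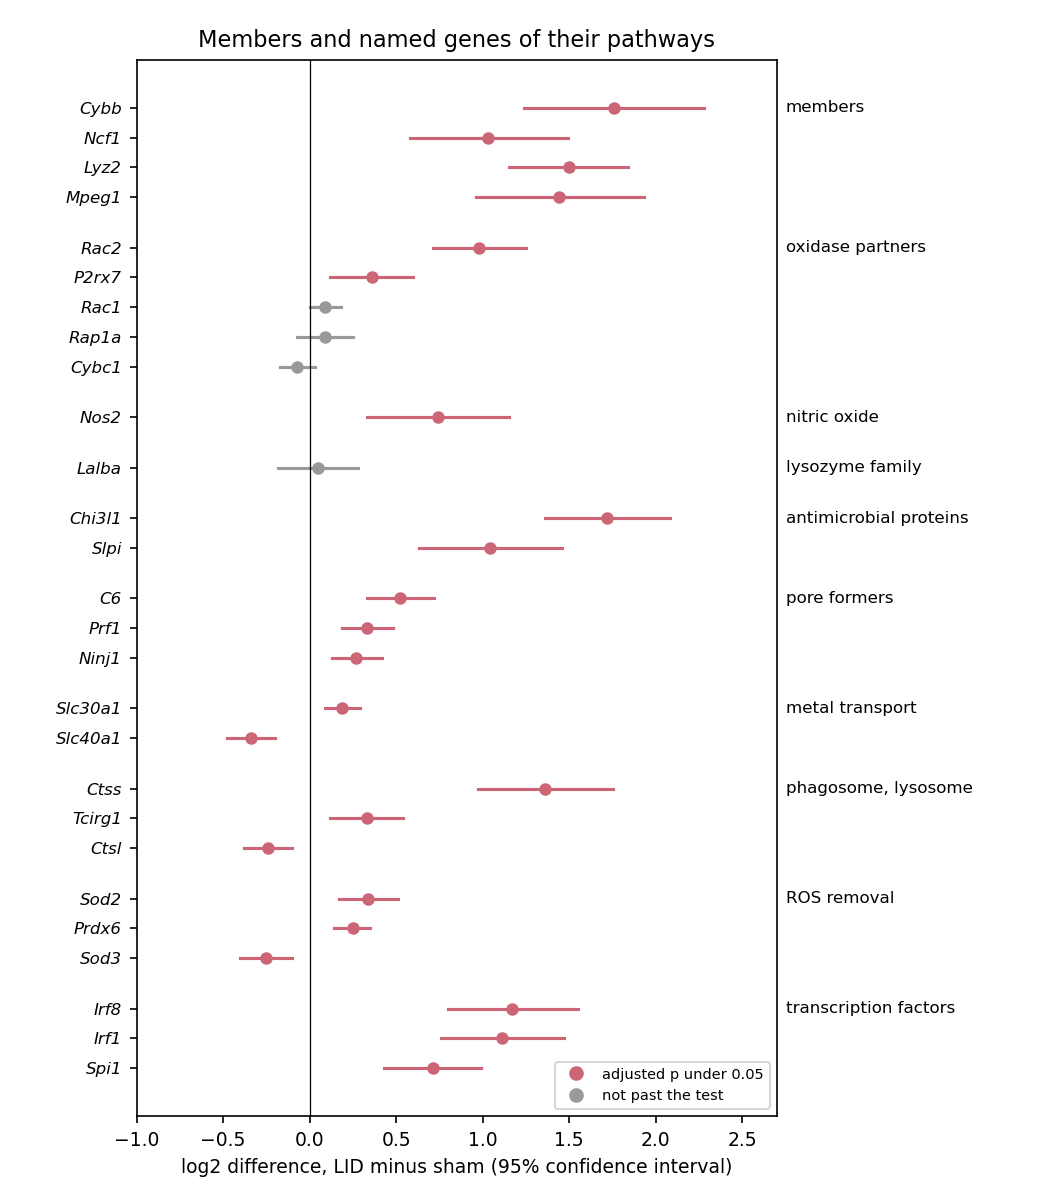
Log2 differences (LID minus sham, horizontal axis) with 95% confidence intervals for the 4 effector genes and for the named genes of their pathways, grouped by role, in red where the adjusted p was under 0.05 and grey otherwise. Cybb (1.76) and Chi3l1 (1.72) lie farthest to the right, and Slc40a1 (-0.34), Sod3 (-0.25) and Ctsl (-0.24) lie to the left of 0.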

How the data were processed

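RNA from 12 single L5 ganglia, 6 sham and 6 LID by the deposited titles, was hybridized to Affymetrix Rat Exon ST 1.0 arrays. The authors summarized core probesets with RMA in GeneSpring 11.5, applied quantile normalization and a transformation to the median of all samples, and the deposited values are log2 values with each probeset's median at 0. Base and direction were settled against the supplementary list of regulated genes. The labels name build rn4, of which no coordinates are used. Signal over background is unknown, so filters on dim probesets and other background corrections could not be tried, and the number of arrays limits the precision. RNA was isolated with kits of different makers, and which ganglion had which is not given in the sources used here. Of the probesets, 409 carried several symbols in the platform annotation and 248 none.

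LID was compared with sham in limma 3.58.1 (R 4.3.3) with Benjamini-Hochberg adjustment over 8260 probesets. The same fit was run on simulated probesets that varied independently and with equal spread in all arrays. That simulation did not cover correlated genes or arrays of unequal spread. Exact permutation tests enumerated 924 assignments (Python 3.11.15, scipy 1.17.1). The effector genes, lists and markers were chosen with earlier results of these data known. From each list all oxidase partners, up to 3 called genes with the largest change and every gene of lists with 3 or fewer were named, and for likeness the 3 with the highest r. Alternatives were other adjustments, array weights, other moderation, median centring, scaling to one median absolute deviation or renewed quantile normalization of the arrays, a replicate block, probesets with 1 symbol, a fold threshold, medians and leaving out arrays.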

Additional observations from a re-analysis of the deposited data

Results flagged for a closer look

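Among 74 groups of 6 arrays checked, over 37 measures, 4 held an array far from the other 5, and chance alone flags about 1 group in 20. In Mpeg1, sham replicate 1 had a log2 value of 0.08, whereas the other 5 sham arrays lay between -1.21 and -0.95. In Lyz2 minus Mpeg1, LID replicate 6 stood at 0.71 and the other LID arrays between -0.16 and 0.14. In Irf1, LID replicate 2 had 1.55 and the other LID arrays 0.34 to 0.74. In the zinc exporter Slc30a1, sham replicate 2 had -0.00 and the other sham arrays -0.17 to -0.12.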

How the results depend on the processing

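The increases of Cybb, Ncf1, Lyz2 and Mpeg1 kept their direction under all 23 alternative fits, and Cybb and Lyz2 were called in all of them. Under Holm's adjustment 2 of the 4 were called, with Ncf1 (log2 1.03, adjusted p = 1) and Mpeg1 (1.44, adjusted p = 0.182 in limma) not past it, and the calls over all probesets were 66 higher and 66 lower, with 3 higher and 0 lower among the pathway genes. Benjamini-Yekutieli adjustment gave 253 higher and 367 lower, and 11 and 1 among the pathway genes. Both adjustments are stricter by construction. Requiring a fold over 1.5 as well gave 177 higher and 70 lower. Beside 633 higher and 968 lower in the reported fit, array weights gave 926 and 1238, arrays centred on their median 701 and 795, renewed quantile normalization 742 and 842, scaling to one median absolute deviation 641 and 1011, and probesets with 1 symbol 592 and 919, with all 4 effector genes called in each. Robust and no moderation gave 627 and 959, and 589 and 938. Leaving out 1 array gave 495 to 700 higher and 766 to 951 lower. The replicate numbers did not pair the arrays (correlation of same-numbered deviations -0.151 to 0.399, 2 of 6 arrays closest to their own number), and with the replicate block 675 were higher and 1005 lower, all 4 effector genes were called, and of the named genes P2rx7 was lost (adjusted p = 0.0645 in limma).

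Cybb minus Ncf1 changed by 0.55 to 0.80 when 1 array was left out, and by 0.54 with medians (exact permutation test, adjusted p = 0.0779). Lyz2 minus Mpeg1 had no stable sign. It ran from -0.07 to 0.14 when 1 array was left out, and was negative when sham replicate 1 (-0.06), sham replicate 2 (-0.01) or LID replicate 6 (-0.07) was removed and with medians (-0.08). The difference of Lalba ran from -0.01, without LID replicate 2, to 0.12. The cause of these changes was not tested.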
